A study of Mus musculus with 8 samples.

Results

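CP5 is 1 of 15 annotated cell types in single-nucleus RNA sequencing of the petrous temporal bone (PTB), the bone of the skull base that houses the inner ear. The authors named it as one of 6 groups of chondrocyte progenitors, CP1 to CP6. Its members here were the nuclei that the deposited annotation calls CP5, matched by library and barcode to the raw matrices of UMIs (unique molecular identifiers, the molecules counted). They were 1316 of 31076 annotated nuclei. The PTB was taken at postnatal day 5.5 from wild-type (WT) mice and from Tbx1+/- littermates, which carry 1 functional copy of Tbx1 in every cell. Mice of both sexes on a C57BL/6J background were used. Each of the 4 libraries pooled 5 mice, with 1 WT and 1 Tbx1+/- library in each of 2 batches, here taken from the replicate numbers. The pools could not be resolved into mice. P-values therefore measure only the spread between libraries.

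Chondrocyte progenitors build cartilage under the transcription factor Sox9, which acts with Sox5 and Sox6 to switch on the genes of cartilage collagens. Tbx1 is a T-box transcription factor of the 22q11.2 region, known for its roles in the pharyngeal arches and in the developing ear. In the ear it is active in the otic epithelium and in the surrounding mesenchyme, which forms the bony capsule and the fibrocytes that line it.

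The libraries held between 11906 and 21868 barcodes and between 66835028 and 88677309 UMIs. CP5 gave 500 nuclei in WT batch 1, 326 in Tbx1+/- batch 1, 221 in WT batch 2 and 269 in Tbx1+/- batch 2, with medians of 4245, 4742, 5214 and 5172 UMIs a nucleus. Summed CP5 UMIs ranged from 1300743 to 2338104 a library. No barcode was CP5 in more than 1 library, and at most 6 CP5 barcodes of a pair of libraries were also among all barcodes of the other library. Levels are given as CPM, the UMIs of a gene per 1000000 UMIs summed over the CP5 nuclei of a library, with the mean and SD of the 4 libraries. Comparisons between cell types are descriptions and carry no test. Osteoclasts, a blood-derived type of 1559 nuclei, served as the type that should lack the genes of cartilage, with medians of 4963 to 7105 UMIs a nucleus. The share of all genes above osteoclasts in every library was not computed. Counts of list members above osteoclasts therefore have no background and only describe the lists.

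Tbx1 and Sox9 were both high in CP5, but neither was highest there. Tbx1 (ENSMUSG00000009097, chr16:18580979-18590671, minus strand, GRCm38) stood at 73.6 CPM in WT batch 1, 49.1 in Tbx1+/- batch 1, 98.4 in WT batch 2 and 84.2 in Tbx1+/- batch 2, from 172, 86, 128 and 132 UMIs. The mean was 76.3 ± 20.8 CPM in CP5 (SD, n = 4 libraries) against 81.8 ± 20.2 in CP6 and 54.0 ± 11.5 in CP4. CP5 was above 13 of the other types in all 4 libraries. It was above CP6 in WT batch 2 alone, so CP5 and CP6 did not differ beyond their spread. Osteoclasts stood at 11.22 ± 3.50 CPM and CP3, another chondrocyte progenitor group, at 8.10 ± 4.06. CP5 held between 8.05% and 10.6% of the annotated Tbx1 UMIs of a library, with between 3.88% and 5.34% of all annotated UMIs.

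Sox9 (ENSMUSG00000000567, chr11:112782224-112787760, plus strand, GRCm38), the master regulator of cartilage, stood at 90.2 CPM in WT batch 1, 96.6 in Tbx1+/- batch 1, 109 in WT batch 2 and 109 in Tbx1+/- batch 2. Its mean of 101.3 ± 9.45 CPM was second to matured chondrocytes at 143.6 ± 33.9, which were above CP5 in all 4 libraries. The next types were CP2 at 58.2 and CP4 at 57.8 CPM, and osteoclasts stood at 15.2 ± 6.12. CP5 was thus among the highest types for both genes. Since the annotation was made from these nuclei, this describes CP5 and is no independent check of it. Neither gene alone set CP5 apart, since CP6 had a like level of Tbx1 and matured chondrocytes exceeded it for Sox9.

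**Figure D1:**
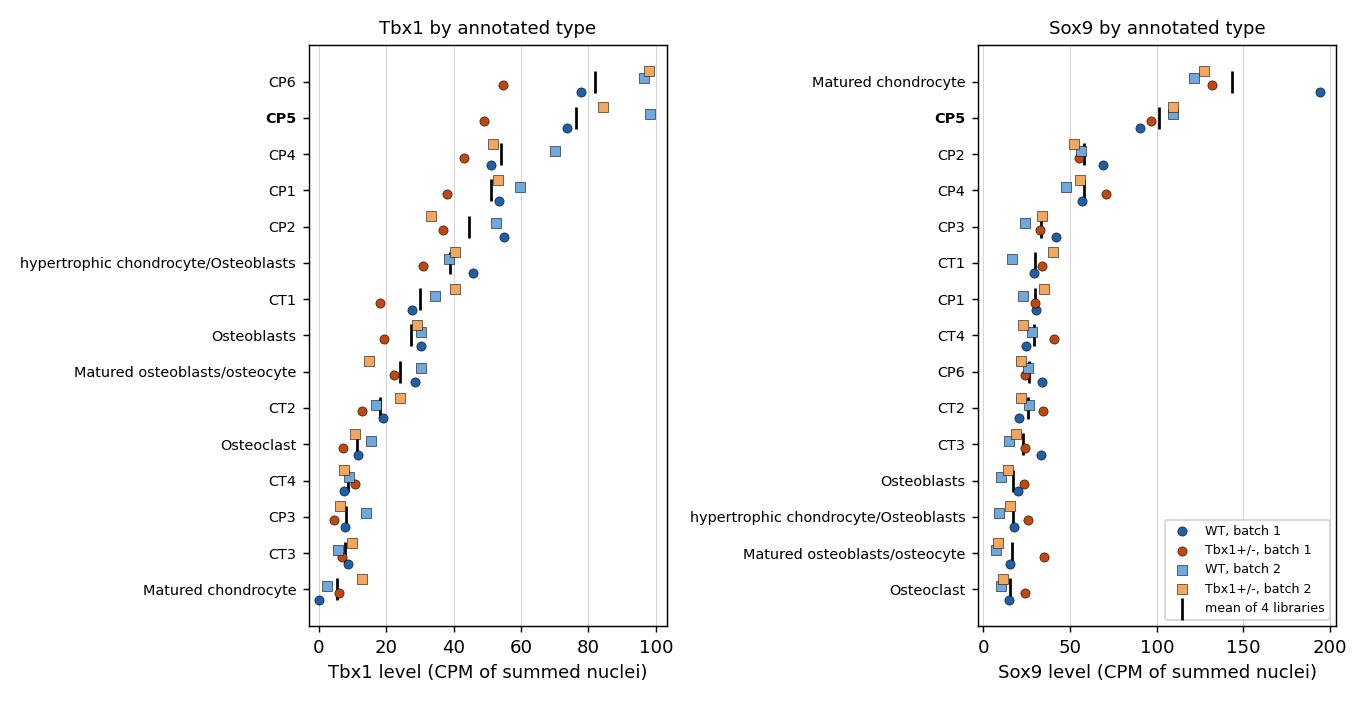
Tbx1 (left) and Sox9 (right) in each annotated cell type, in CPM of summed nuclei on linear axes, with 1 point per library (circles batch 1, squares batch 2, blue WT, orange Tbx1+/-) and a bar at the mean of 4 libraries. CP5 lies next to CP6 at the top for Tbx1 (76.3 and 81.8 CPM) and below matured chondrocytes for Sox9 (101.3 and 143.6 CPM).

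Most CP5 nuclei showed no UMI of either gene. A Tbx1 UMI was seen in 27.2% of CP5 nuclei in WT batch 1 (exact Clopper-Pearson 95% interval 23.3% to 31.3%, for counting error only), 21.2% in Tbx1+/- batch 1, 38.5% in WT batch 2 and 32.7% in Tbx1+/- batch 2. The same shares in osteoclasts were 5.39%, 3.52%, 8.44% and 5.88%. After each nucleus was thinned to 2000 UMIs the CP5 shares were 13.7%, 7.45%, 21.4% and 16.4%, and those of osteoclasts 2.42%, 1.79%, 1.29% and 2.27%. The CP5 share thus stood above the osteoclast share in each library at either depth. Thinning left out 1 to 11 CP5 nuclei and 5 to 14 osteoclasts a library. Sox9 UMIs were seen in between 30.8% and 40.5% of CP5 nuclei and in 7.003% to 11.21% of osteoclasts, and after thinning in 15.8% to 20.9% and 1.29% to 4.93%. Both genes were seen together in 9.20%, 7.98%, 13.6% and 14.5% of CP5 nuclei, where the product of the separate shares gave 8.38%, 7.92%, 15.1% and 13.3%. The share of nuclei with both was within 2 percentage points of that product in every library.

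Over the genes well counted in CP5, its profile was most like those of CP4 and CP3. These were the 8446 genes with at least 20 UMIs in CP5 in every library. Genes low in CP5 and high in another type were thus left out. The genes are not independent replicates and share library and depth. On log-scaled levels, Pearson's r with CP5 was 0.906 to 0.926 over the libraries for CP4. It was 0.890 to 0.917 for CP3, 0.862 to 0.895 for CP2 and 0.855 to 0.881 for CP6. It was lower for matured chondrocytes (0.700 to 0.765) and for osteoclasts (0.666 to 0.711). CP6, the type nearest to CP5 in Tbx1, was thus not the nearest over these genes, which were chosen by their counts in CP5.

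The leading genes of CP5 were the 25 with at least 20 UMIs in CP5 in every library and the highest ratio of CP5 to the highest other type in the library where that ratio was lowest, with 5 CPM added to both. Since the annotation was made from these nuclei, they describe the type and are no independent result. The lowest log2 ratio of the last member, Cytl1, was 1.51, and Abhd12, Rnf180 and Prom1, just outside, had 1.496, 1.492 and 1.488. All 25 had a higher CPM in CP5 than the other type of highest mean, as the rule requires.

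Iqgap2 (chr13:95627177-95891922, minus strand), a scaffold protein of the actin skeleton, stood at 2367 CPM in WT batch 1, 2957 in Tbx1+/- batch 1, 2780 in WT batch 2 and 2617 in Tbx1+/- batch 2, against 385 ± 73.4 CPM in CT4, the next type. Tll2 (chr19:41082753-41206835, minus strand), a tolloid-like metalloproteinase that cleaves matrix precursors, stood at 520, 609, 599 and 580 CPM in the same order, against 85.0 ± 14.4 in CP6. Both genes varied little between the libraries, and the genotypes overlapped. Pgm5, a phosphoglucomutase relative found at cell junctions, had 864 ± 141 CPM against 150 ± 13.1 in CP6. Clca2 (chr3:145070263-145099443, minus strand), of the family of chloride channel regulators, had 69.7 ± 12.3 CPM against 5.47 in CP4. These protein-coding genes were several-fold higher in CP5 than in any other type.

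Neto2, an accessory subunit of kainate receptors, had 542 ± 68.0 CPM in CP5 against 91.0 in CP4. Lrp1b, a large receptor of the LDL receptor family, had 1675 ± 123 CPM against 414 in CP3. Vit, which encodes the matrix protein vitrin, had 429 ± 37.0 CPM against 107 in CP2. Lpcat2, an acyltransferase of phospholipid metabolism, and Zfp804a, a zinc finger protein, were also members, with 413.5 ± 39.2 CPM and 129 ± 17.1 CPM. Genes known from the nervous system were also among them. Opalin, a myelin membrane protein, had 28.3 ± 6.79 CPM, Bcan, the proteoglycan brevican, 33.4 ± 1.97 and Astn1, a neuronal adhesion protein, 70.01 ± 15.3. Cytl1, a secreted protein known from cartilage, was the most variable member named here, with 178 CPM in WT batch 1, 46.9 in Tbx1+/- batch 1, 60.0 in WT batch 2 and 120 in Tbx1+/- batch 2. Its 2 highest libraries were 1 of each genotype.

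Some leading genes share a locus, and their levels cannot be taken as independent. F2rl2, a protease-activated receptor with 83.9 ± 13.5 CPM, lies inside Iqgap2 on the opposite strand. Opalin and Tll2 are neighbours on the same strand of chromosome 19, 5.6 kb apart. Gm37679 lies opposite Astn1. Of the 25, 23 had a position in GENCODE vM21 and 15 of these were protein coding. Of the 23, 7 overlapped a gene on the same strand and 15 a gene on the other strand. Many of the overlapping genes were not among the features counted. On the same strand the counted ones were Anks1b, which overlaps Gm47591, and Capns2, which overlaps Lpcat2. The strand setting of the counting is not given in the sources used here, and intron reads were counted. Reads of overlapping genes that were both counted may therefore have been split. The unnamed AC171003.1 had 242 ± 49.7 CPM against 28.4 in CP4, and AC163685.1 had 207 ± 26.7 against 26.6.

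**Figure D2:**
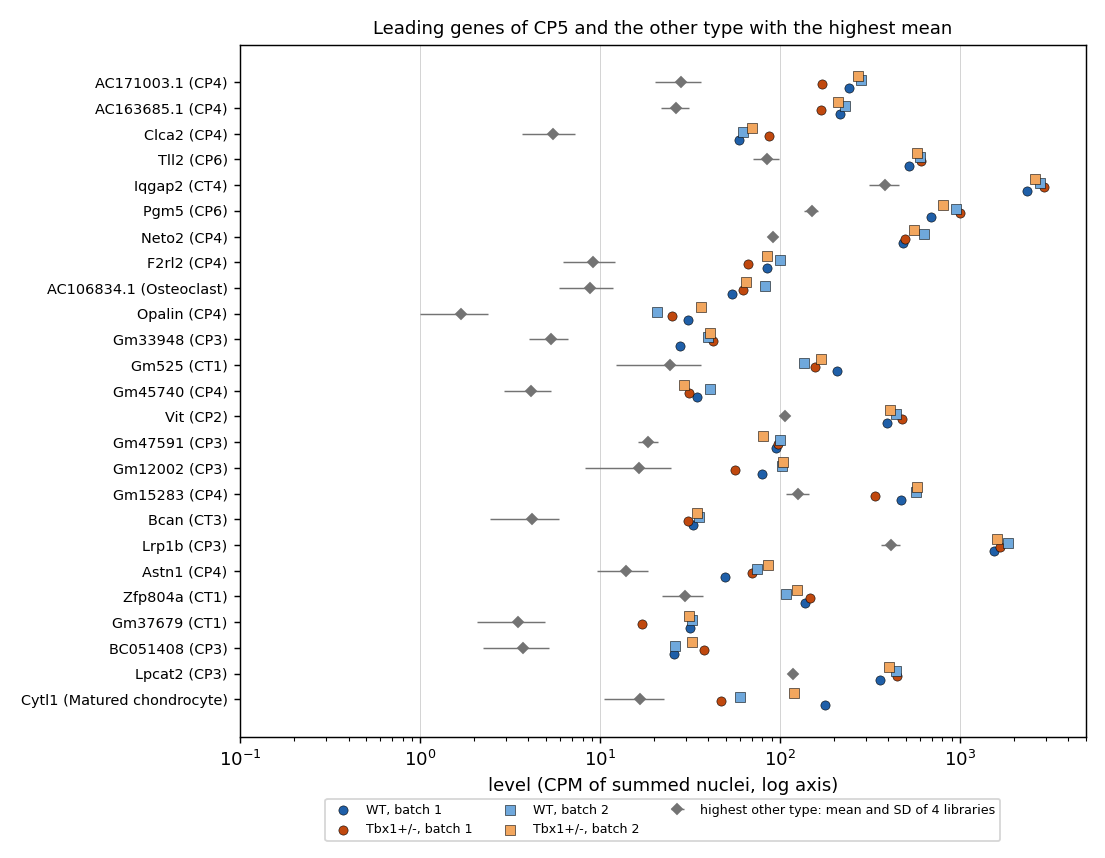
The 25 leading genes of CP5, in CPM on a log axis, with 1 point per library for CP5 (circles batch 1, squares batch 2, blue WT, orange Tbx1+/-) and a grey diamond with SD for the other type of highest mean over 4 libraries, named in brackets. All points of CP5 lie to the right of the diamonds. Cytl1 spreads most widely of the genes named above, from 46.9 to 178 CPM.

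To show what lies in front of genes that mark CP5, the 250 bases upstream of the outermost RefSeq start (GRCm38.p6) are given for Tbx1, whose copy number defines the genotypes, for Otor, an ear gene highest in CP5, and for Clca2, a leading gene. Each runs 5′ to 3′ on the strand of its gene, at chr16:18590672-18590921 (minus), chr2:143078143-143078392 (plus) and chr3:145099107-145099356 (minus). Capitals mark the SOX motifs searched for, ACAAAG or ACAATG on either strand. The Clca2 window lies inside the longer gene model of GENCODE vM21.
Tbx1: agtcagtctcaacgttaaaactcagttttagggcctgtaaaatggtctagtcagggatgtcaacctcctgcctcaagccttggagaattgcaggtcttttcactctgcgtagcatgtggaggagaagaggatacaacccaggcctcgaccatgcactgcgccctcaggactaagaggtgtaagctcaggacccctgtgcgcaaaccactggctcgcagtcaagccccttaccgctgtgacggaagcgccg
Otor: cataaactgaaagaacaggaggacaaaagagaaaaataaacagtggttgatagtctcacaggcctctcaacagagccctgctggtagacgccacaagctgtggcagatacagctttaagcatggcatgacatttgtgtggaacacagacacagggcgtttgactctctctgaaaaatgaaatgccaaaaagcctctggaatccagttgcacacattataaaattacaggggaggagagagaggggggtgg
Clca2: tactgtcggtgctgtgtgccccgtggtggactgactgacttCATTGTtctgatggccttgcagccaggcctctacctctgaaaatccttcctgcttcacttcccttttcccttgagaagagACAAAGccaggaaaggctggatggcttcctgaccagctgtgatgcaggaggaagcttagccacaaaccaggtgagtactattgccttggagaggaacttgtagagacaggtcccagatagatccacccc
The window of Clca2 held 2 such motifs and those of Tbx1 and Otor held 0. Of the 14 leading genes with a RefSeq sequence, 4 (28.6%) held a SOX motif, against 25.4% of 27025 genes in the table. The T-box motif GGTGTGA was in 0 of the 14 and in 3.31% of all. The chondrocyte list, with 2 of 11 members (18.2%) holding a SOX motif, was also near the share of all genes, and the otic fibrocyte list held it in 0 of 6.

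Genes of otic fibrocytes were high in CP5. Otic fibrocytes are the connective tissue cells of the cochlear wall, which handle potassium and secrete matrix. All 8 members were above osteoclasts in all 4 libraries, 6 of them by over 2-fold, and CP5 had the highest mean of the 15 types for 4. Summed over the list, CP5 had 3522 to 5086 CPM and osteoclasts 259.5 to 404.9, and CP5 ranked first of the types. The rank rested on Car3 and Otor. Over all 8 genes CP3 had 3201 to 4288 CPM, and over the other 6 CP5 had 812 to 844.3 and CP3 1221 to 1291. The list was chosen with results of these data known, so its rank is a description.

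Car3, a carbonic anhydrase, stood at 1674 CPM in WT batch 1, 1740 in Tbx1+/- batch 1, 2373 in WT batch 2 and 2584 in Tbx1+/- batch 2. The batch 2 libraries were the higher ones in both genotypes. Its mean was 2093 ± 455 CPM, against 1869 ± 413 in CP3 and 151 in osteoclasts. Otor, which encodes the secreted protein otoraplin of the inner ear, stood at 2116, 969.8, 1361 and 1668 CPM in the same order, with the highest and the lowest both in batch 1. Its mean was 1529 ± 485 CPM against 760 ± 220 in CP3. CP5 was above all 14 other types for Car3 and Otor in all 4 libraries.

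Other fibrocyte genes were shared with CP3. Tbx18, a T-box factor needed to form otic fibrocytes, had 545 ± 28.3 CPM in CP5 and 749 ± 28.5 in CP3. Pou3f4, a transcription factor of the otic mesenchyme whose loss causes X-linked deafness, had 108 ± 18.3 CPM against 106 in CP3. Otos, otospiralin, had 88.8 ± 31.1 CPM against 75.0 ± 45.5 in CP3, a difference within the spread. Coch, the matrix protein cochlin, went the other way, with 66.2 ± 21.3 CPM in CP5 and 281 ± 47.9 in CP3. Kcnk2, a potassium channel, had 18.6 ± 4.28 CPM in CP5 and 325 in CP6. Slc4a11, a transporter of cochlear fibrocytes, had few UMIs, with 1.12 CPM in CP5 and 0.490 in osteoclasts.

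CP5 carried the collagen part of the chondrocyte list and little of its aggregate proteins. Of 16 members, 12 were above osteoclasts in all 4 libraries and 10 by over 2-fold. The list summed to 9116 to 10657 CPM in CP5 and 1706 to 2539 in osteoclasts, while matured chondrocytes had a mean of 23290. Col2a1, the main cartilage collagen, stood at 2063 CPM in WT batch 1, 1803 in Tbx1+/- batch 1, 1519 in WT batch 2 and 1886 in Tbx1+/- batch 2. The genotypes overlapped. Matured chondrocytes had 3664 ± 1270 CPM of Col2a1 and osteoclasts 359. Matured chondrocytes gave 147 nuclei in WT batch 1, 48 in Tbx1+/- batch 1, 138 in WT batch 2 and 254 in Tbx1+/- batch 2. Their median of 2572 UMIs a nucleus was the lowest of the types, so their levels are less precise.

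The collagen IX genes, which encode the chains that coat the type II fibril, stood as high in CP5 as in matured chondrocytes or higher. Col9a1 had 1829 ± 197 CPM in CP5 and 1418 ± 547 in matured chondrocytes, and Col9a3 had 1179 ± 116 against 692 ± 271. CP5 was above all 14 other types for Col9a3 in all 4 libraries, and above 13 for Col9a1. Col9a2 had 364 ± 54.4 CPM against 372 in matured chondrocytes. Col11a2, a further fibril collagen, had 1039 ± 123 CPM against 1298, and Cnmd, chondromodulin, which keeps vessels out of cartilage, had 318 ± 35.7 against 505.

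The proteoglycan core and its link proteins were low. Acan, the core protein aggrecan, stood at 58.2 CPM in WT batch 1, 44.6 in Tbx1+/- batch 1, 40.0 in WT batch 2 and 53.6 in Tbx1+/- batch 2. Osteoclasts had 36.7 ± 8.73 CPM of Acan and matured chondrocytes 1333 ± 345. Hapln1, the link protein that ties aggrecan to hyaluronan, had 16.6 ± 6.80 CPM in CP5, 21.0 in osteoclasts and 1353 in matured chondrocytes. Comp and Snorc, matrix proteins of mature cartilage, had 13.1 ± 7.02 and 8.22 ± 6.69 CPM in CP5, near the osteoclast levels of 11.3 and 9.81. Sox5 stood at 711 ± 56.0 CPM, well above the 109 of osteoclasts, while Sox6 at 268 ± 42.3 was close to their 182 and far below the 2615 of matured chondrocytes.

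**Figure D3:**
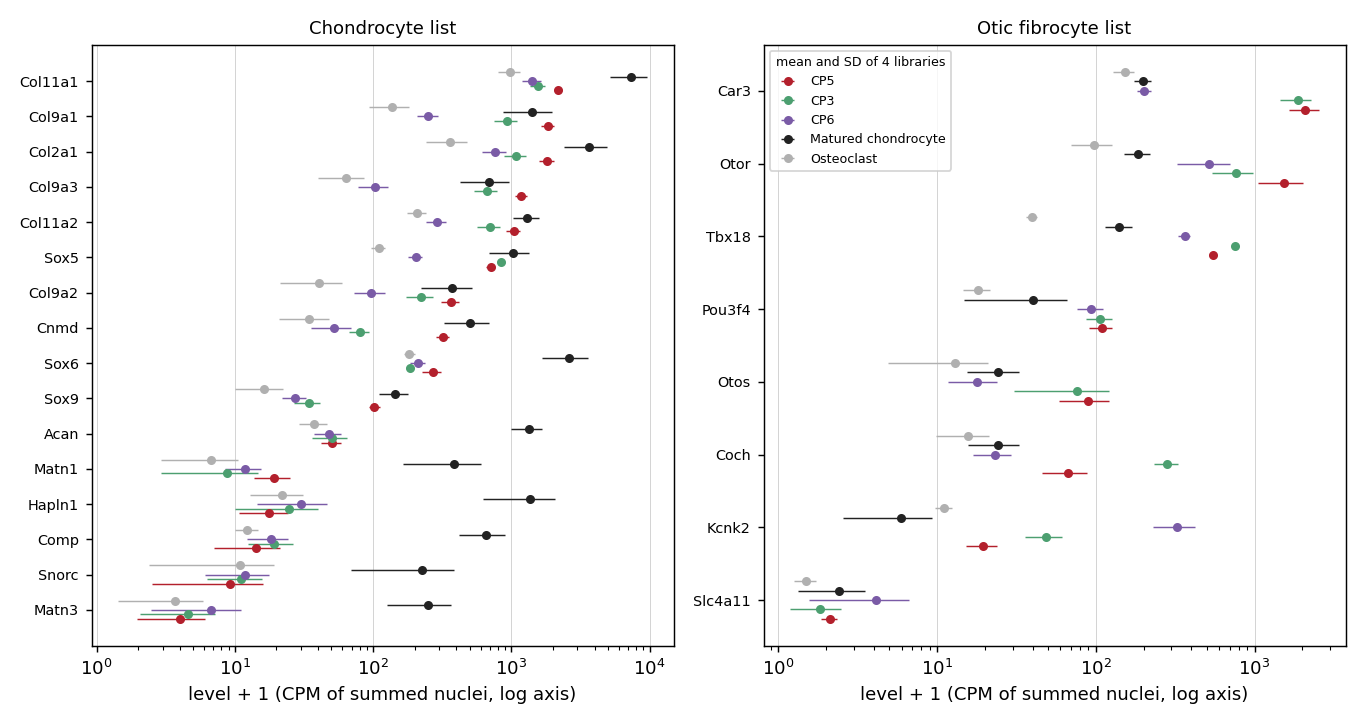
The 16 chondrocyte genes (left) and 8 otic fibrocyte genes (right) in CP5, CP3, CP6, matured chondrocytes and osteoclasts, as CPM + 1 on log axes, with points at the mean and bars of SD over 4 libraries. CP5 is near matured chondrocytes for the collagen IX genes and near osteoclasts for Acan and Hapln1. For Car3 and Otor it lies furthest right.

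Of 11 osteoblast genes, 4 were above osteoclasts in all 4 libraries and 0 by over 2-fold. Runx2, the master regulator of bone formation, had 716 ± 167 CPM in CP5 and 1087 ± 110 in osteoclasts, against 8806 in CP1. Of 6 hypertrophic chondrocyte genes, 0 were above osteoclasts in all libraries, with sums of 897.2 to 1576 CPM against 908.7 to 1569. Connective tissue genes had 7 of 9 above osteoclasts and 1 by over 2-fold, with sums of 946.4 to 1754 CPM in CP5 and a mean of 6250 in CT1. Osteoclast genes summed to 375.2 to 1137 CPM in CP5 and 9740 to 11736 in osteoclasts.

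Markers of inner ear epithelium were mixed. Of 9 supporting cell genes, 6 were above osteoclasts in all libraries, led by Slc1a3, a glutamate transporter, with 684 ± 92.4 CPM in CP5 and 1455 in CP3. Of 15 otic epithelium genes, 3 were above osteoclasts in all libraries, and Eya1, a coactivator needed for ear formation and also active in the mesenchyme, had 1021 ± 79.6 CPM. Hair cell genes had 1 of 8 above osteoclasts, with sums of 40.2 to 51.5 CPM against 53.1 to 60.4. Osteoclasts had the highest mean sum of all types for this list, and CP5 had rank 4. The stria and dark cell list ranked first in CP5 through 1 gene. That gene was Slc12a2, the sodium, potassium and chloride cotransporter NKCC1 used by fibrocytes and marginal cells, at 466, 427, 443 and 407 CPM against 339 in CT2, above all 14 other types in each library.

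Lists of other cells differed in where they stood against osteoclasts. Summed levels were 62.3 to 147.4 CPM for immune genes against 794.4 to 900.5 in osteoclasts, and 95.1 to 336.2 CPM for skeletal muscle genes against 683.9 to 1019. Satellite cell genes were at 0 UMIs in CP5 for 3 of 5, Pax7 among them. Keratinocyte and lymphatic genes had 0 of 6 and 0 of 5 above osteoclasts in all libraries. Blood endothelial genes had 1 of 7, with sums of 165.3 to 267.4 CPM in CP5, above the 104.5 to 139.3 of osteoclasts, and CP5 had rank 4 of the 15 types. Neuronal genes had 6 of 8 above osteoclasts and 2 by over 2-fold, with sums of 251.4 to 309.7 CPM against 106.6 to 160.5 and a mean of 1781 in CP6. General epithelial genes summed to 150.9 to 163.8 CPM against 50 to 81.1, with 2 of 9 above osteoclasts in all libraries. Tendon and synovial genes summed to 69.96 to 93.7 CPM against 25.4 to 43.4, with 3 of 7. Schwann cell genes summed to 303.7 to 497.2 CPM against 154.9 to 357.4, with 2 of 7, and erythroid genes to 413.6 to 671.5 against 283 to 584.6, with 4 of 7 and 0 by over 2-fold. Of genes of dividing cells, 6 of 43 S phase and 4 of 51 G2/M phase genes were above osteoclasts in all libraries, and 0 of either by over 2-fold. Mki67, the usual proliferation marker, had 27.39 ± 4.799 CPM against 44.7 in osteoclasts.

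Among genes of the FGF pathway, the receptor Fgfr4 and the factors Etv4 and Etv5 had their highest mean in CP5. FGF ligands bind receptor tyrosine kinases, and the ETS factors Etv4 and Etv5 are known transcriptional targets of that signal. Of 22 members, 10 were above osteoclasts in all libraries, 6 by over 2-fold. The receptor Fgfr4 stood at 331 CPM in WT batch 1, 318 in Tbx1+/- batch 1, 450 in WT batch 2 and 523 in Tbx1+/- batch 2, with both batch 2 libraries above both batch 1 libraries. Its mean was 406 ± 98.3 CPM against 204 ± 44.6 in CP3 and 7.10 in osteoclasts. Etv4 stood at 58.2, 60.0, 81.5 and 70.8 CPM in the same order, against 25.7 in CP4 and 2.66 in osteoclasts. Both were above all 14 other types in every library. The receptors Fgfr2, at 1059 ± 86.2 CPM, and Fgfr1, at 362 ± 18.6, were also present in CP5, and had higher means in other types, with 2453 CPM of Fgfr2 in CT3 and 916 of Fgfr1 in matured osteoblasts. Etv5 had 109 ± 9.87 CPM against 90.2 in matured osteoblasts, the next type. Other targets of the pathway were nearer to osteoclasts, with Spry4 at 6.70 ± 0.916 CPM against 3.37 and Dusp6 at 9.46 ± 3.48 against 11.23.

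In the BMP list 15 of 26 members were above osteoclasts in all libraries and 4 by over 2-fold. Bmp5, a ligand, had 653 ± 38.7 CPM in CP5 against 604 in CP2, and was above all 14 other types. In the Hedgehog list the figures were 6 of 13 and 4. The co-receptor Boc had 388 ± 41.8 CPM against 333 in CT1, and the factor Gli3 had 395 ± 8.24 against 512 in CP6, while the target genes Ptch1 and Hhip were lowest of all types in CP5, at 82.6 and 51.2 CPM. In the Wnt list they were 16 of 39 and 6, with the co-receptor Lrp6 at 418 ± 12.0 CPM against 330 in CT2 and the ligand Wnt5a at 163 ± 14.6 against 313 in CP3. In the Notch list they were 5 of 14 and 2, and the receptor Notch1 had 55.0 ± 5.62 CPM against 19.4 in osteoclasts. In the retinoic acid list they were 7 of 18 and 2, and Aldh1a1, which makes retinoic acid, had 275 ± 21.3 CPM against 221 in CP3.

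Of 39 genes of cell junctions and basement membrane, 20 were above osteoclasts in all libraries and 13 by over 2-fold. Cdh1, E-cadherin, had 116 ± 10.7 CPM against 124 in CT2 and 17.3 in osteoclasts, and Cdh3, P-cadherin, had 34.4 ± 7.62 against 12.6 in CT1. Tjp1, a tight junction scaffold, had 284.5 ± 12.3 CPM against 927 in CP3. Of 26 ion transport genes, 5 were above osteoclasts in all libraries and 3 by over 2-fold. Of 16 T-box genes, 3 were, with Tbx18 and Tbx1 by over 2-fold. Of 34 genes of the region syntenic to 22q11.2, 11 were and 3 by over 2-fold, and their sum of 1038 to 1106 CPM was below that of osteoclasts, 1247 to 1278. Of 28 apoptosis genes 5 were, and 0 by over 2-fold. Osteoclasts had the highest mean sum of all types for both the syntenic and the apoptosis list, where CP5 had ranks 12 and 15.

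CP5 was not uniform. Leiden clustering of the CP5 nuclei alone gave 6 sub-clusters, of 493, 269, 238, 196, 93 and 27 nuclei, each with at least 1 nucleus in all 4 libraries. They were left unnamed, since their leading genes come from the same nuclei that were clustered. Sub-cluster 1 (37.5% of CP5) was led by 4921534H16Rik and Clstn2, a synaptic adhesion protein, with 1895 CPM against 771 in the rest of CP5. It had the highest Car3, 2774 CPM. Sub-cluster 2 was led by Ano4, Clec3a, a C-type lectin of cartilage, and Slco1c1, a thyroid hormone transporter, and held most of the Coch signal, with 186 CPM against 40.3 in the rest. Sub-cluster 3 was led by B830012L14Rik and Bnc2, a zinc finger protein, with 232 CPM against 55.2.

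Sub-cluster 4 was led by Etv4, with 189 CPM against 46.9 in the rest, and also had more Slc12a2, 882 CPM against 360. Fgfr4 was higher in sub-clusters 2 and 4, at 616 and 648 CPM, than in sub-clusters 1 and 3, at 318 and 291. Tbx1 differed little between the 4 largest sub-clusters, with means of 76.3, 84.2, 85.4 and 71.0 CPM, while Sox9 was 123.9 and 134.3 in sub-clusters 1 and 4 and 75.6 and 78.1 in 2 and 3.

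The 2 smallest sub-clusters carried genes of other lineages. Sub-cluster 5 (7.07% of CP5) was led by Mamdc2, with 339 CPM against 16.3 in the rest, and had 2900 CPM of Runx2 against 419. Sub-cluster 6 (2.05%) was led by the vascular receptor Flt1, with 557 CPM against 12.1 (means of 3 libraries, since WT batch 2 had 1 nucleus), and held the endothelial adhesion protein Pecam1 at 183 against 20.3. Their median UMI counts, 7815 and 7571, were above those of the larger sub-clusters, 4233 to 5760. No removal of doublets is described in the sources used here, and its part in these sub-clusters was not tested. Without both, Tbx1 stood at 80.1 ± 21.5 CPM, Sox9 at 104 ± 9.38, Runx2 at 416 ± 103 and Flt1 at 9.44 ± 2.45, and 23 of the 25 leading genes were still leading. Counts of list members above osteoclasts were then 11 of 16 for chondrocytes, 8 of 8 for otic fibrocytes and 2 of 11 for osteoblasts.

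**Figure D4:**
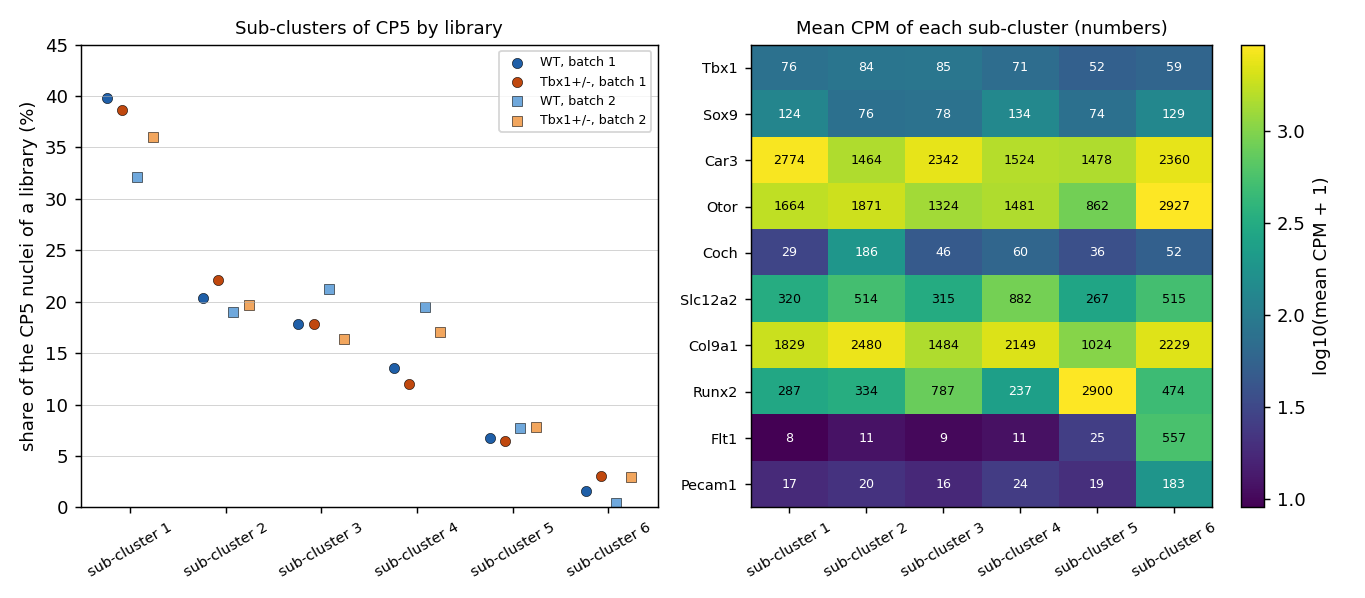
Left, the share of each sub-cluster among the CP5 nuclei of a library, in percent, with 1 point per library (circles batch 1, squares batch 2, blue WT, orange Tbx1+/-). Right, mean CPM of 10 genes in each sub-cluster, coloured by log10(CPM + 1) with the value printed (3 libraries for sub-cluster 6, 4 for the others), where Runx2 stands out in sub-cluster 5 (2900 CPM) and Flt1 in sub-cluster 6 (557 CPM).

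The comparison of genotypes asks whether loss of 1 copy of Tbx1 changed the number of CP5 nuclei or their RNA. CP5 was 5.01% of annotated nuclei in WT batch 1, 3.75% in Tbx1+/- batch 1, 3.70% in WT batch 2 and 4.19% in Tbx1+/- batch 2. The Tbx1+/- libraries lay between the WT libraries, and the direction differed between the batches. The log2 difference, Tbx1+/- minus WT, was -0.13 (SE 0.23, adjusted p = 0.885 over 15 types by edgeR's quasi-likelihood test), which did not pass the false discovery rate of 0.1. It was -0.34 without WT batch 2 and turned to 0.10 without WT batch 1.

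Tbx1 itself was measured at 49.1 and 84.2 CPM in the CP5 nuclei of Tbx1+/- libraries and at 73.6 and 98.4 in those of WT libraries. The ratio of Tbx1+/- to WT was 0.668 in batch 1 and 0.856 in batch 2, so both batches were lower, but the groups overlapped. The log2 difference was -0.37 (SE 0.27, unadjusted p = 0.205, adjusted p = 1.00 over 12385 genes by edgeR), and the exact two-sided permutation test gave p = 0.667, where 2 libraries against 2 cannot go below 0.333. Leaving out 1 library moved the difference widely, from -0.81 without Tbx1+/- batch 2 and -0.58 without WT batch 1 to -0.15 without WT batch 2 and -0.01 without Tbx1+/- batch 1. With the batch as a replicate block it was -0.41 (SE 0.18, unadjusted p = 0.036, adjusted p = 1.00 by edgeR). Which part of Tbx1 the lost copy lacks is not given in the sources used here, and whether the counted reads check that loss was not tested. For Sox9 the ratios were 1.07 and 1.00, and the log2 difference was 0.04.

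No gene passed the test of genotype in CP5. Of 12385 genes tested, 0 were called at an adjusted p under 0.05 and a change over 1.5-fold, which is 0% of those tested, and DESeq2 also called 0. At an unadjusted p under 0.05 edgeR had 203 genes, 77 higher and 126 lower in Tbx1+/- (0.622% and 1.02% of those tested), and DESeq2 25. With the batch as a replicate block edgeR called 1 gene, 0.00807% of those tested. The median log2 difference over all genes was -0.01 and the median SE 0.28. Leaving out 1 library raised the count to 78 without WT batch 1, 20 without WT batch 2, 17 without Tbx1+/- batch 1 and 3 without Tbx1+/- batch 2, where the lone library was assumed to vary like the other group. The direction depended on the library left out. The calls without WT batch 1, the largest set, were mostly higher in Tbx1+/-. Those without WT batch 2 were mostly lower in Tbx1+/-. They included genes of the ribosome (Rps21, Rpl38 and Rps29) and of the mitochondrial genome (mt-Co2 and mt-Cytb). The mitochondrial share of CP5 UMIs was 1.28% in WT batch 1, 0.896% in Tbx1+/- batch 1, 0.535% in WT batch 2 and 0.667% in Tbx1+/- batch 2. The calls without Tbx1+/- batch 1 were lower for 16 of 17 and included skeletal muscle genes (Myl1, Tnnc2, Mylpf and Acta1). The summed skeletal muscle list stood at 336.2, 308.6, 164.5 and 95.1 CPM in CP5 in the same order. The part of RNA quality and of muscle RNA in these calls was not tested.

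The gene called with the block was Bpifa1, a secretory protein of the airways, which is not known as a cartilage gene. It stood at 135.6 CPM in WT batch 1, 45.7 in Tbx1+/- batch 1, 49.2 in WT batch 2 and 1.92 in Tbx1+/- batch 2. Each Tbx1+/- library was below the WT library of its batch (log2 difference -2.15, SE 0.32, adjusted p = 0.0187 by edgeR with the block). Osteoclasts had 155, 44.5, 31.4 and 3.32 CPM of Bpifa1 in the same order, the same order of levels within each batch. In all 15 types the Tbx1+/- library was below the WT library in both batches. The counts were not corrected for free RNA, whose part in this value was not tested. The difference between CP5 and the other progenitors in its genotype change was 0.03 (SE 0.21).

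The 6 genes of smallest p whose 2 batches shared a direction were not called, each with an adjusted p of 1.00 by edgeR. Rspo2, a secreted enhancer of Wnt signals, stood at 20.1 CPM in WT batch 1, 8.57 in Tbx1+/- batch 1, 18.5 in WT batch 2 and 3.83 in Tbx1+/- batch 2. Both Tbx1+/- libraries were below both WT libraries (log2 difference -1.63, SE 0.41, unadjusted p = 0.00309 by edgeR). Of all genes tested, 13.4% had both Tbx1+/- libraries below both WT libraries and 14% had both above. Gm42620 (log2 difference -1.49) and Gm17300 (-2.14) also had lower values in Tbx1+/-. Ccng1, a target of p53, had 9.41, 21.7, 11.5 and 24.3 CPM, and Kcnd3, a potassium channel, had 21.4, 42.3, 21.5 and 36.4, both with both Tbx1+/- libraries above both WT libraries.

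Flt1, the second of the 6 by p, belongs to the blood endothelium list. Flt1 had 21.0 CPM in WT batch 1, 43.4 in Tbx1+/- batch 1, 17.7 in WT batch 2 and 37.7 in Tbx1+/- batch 2 (log2 difference 1.04, SE 0.25, unadjusted p = 0.00223 by edgeR). Of the 7 endothelial genes 0 were called and 4 had an unadjusted p under 0.05, all 4 with both Tbx1+/- libraries above both WT libraries, against 0.622% of all genes at that p in that direction. They were Flt1, Tie1 (1.80), Tek (1.06) and Pecam1 (0.73), and the median of the list was 0.73 against -0.01 over all genes. Sub-cluster 6, led by Flt1, had 8 nuclei in WT batch 1, 10 in Tbx1+/- batch 1, 1 in WT batch 2 and 8 in Tbx1+/- batch 2, which were 1.60%, 3.07%, 0.453% and 2.97% of the CP5 nuclei. Its share was thus higher in both Tbx1+/- libraries, on few nuclei and with no test. Without sub-clusters 5 and 6 the difference of Flt1 was 0.58 (SE 0.41, unadjusted p = 0.194 by edgeR), that of Tek 0.49 and that of Pecam1 0.36. Tie1 was not among the genes tested without them, and stood at 1.49 CPM in WT batch 1, 4.65 in Tbx1+/- batch 1, 1.79 in WT batch 2 and 6.17 in Tbx1+/- batch 2. Both Tbx1+/- libraries were then above both WT libraries for Tie1, Flt1 and Tek, and the groups overlapped for Pecam1. These levels were low. For Tek the margin was small, with 9.85 CPM in WT batch 2 and 10.0 in Tbx1+/- batch 2. With all CP5 nuclei, 14% of all genes tested were separated in this direction. The share without sub-clusters 5 and 6 was not computed. In sums, more such nuclei and more RNA in each cannot be told apart.

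**Figure D5:**
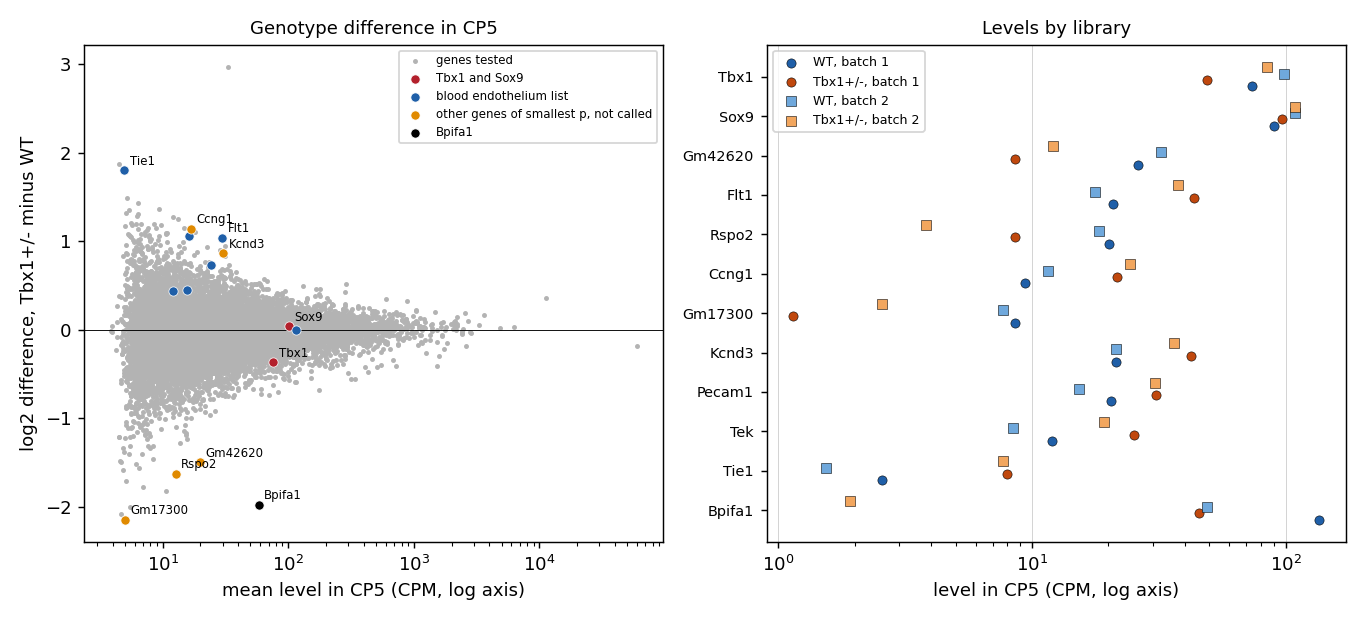
Left, log2 difference Tbx1+/- minus WT against mean level in CP5 (CPM, log axis) for 12385 genes, with named genes coloured. Right, levels of the same genes in each library on a log axis (circles batch 1, squares batch 2, blue WT, orange Tbx1+/-). The 2 genotypes overlap for Tbx1 and Sox9, separate for Rspo2 and Flt1, and none of these genes was called.

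The lists that describe CP5 held no called gene with all 4 libraries. Without Tbx1+/- batch 2 the leading gene Cytl1 was called, at -1.39 (SE 0.30, adjusted p = 0.0119 by edgeR). Of 15 chondrocyte genes tested, 0 had an unadjusted p under 0.05, with a median log2 difference of 0.00, and of 7 otic fibrocyte genes 0 did, with a median of -0.21. Otor had a difference of -0.41 (SE 0.28), Car3 0.09 (SE 0.24), Col9a1 -0.15 (SE 0.17) and Col2a1 0.03 (SE 0.19). Of the 25 leading genes 0 had an unadjusted p under 0.05, with a median of -0.07, and 3 had both Tbx1+/- libraries above both WT libraries and 4 both below, where 14% and 13.4% of all genes tested did, so these counts were near the background. For the FGF list the figures were 15 tested, 0 at that p and a median of -0.05, with Fgfr4 at 0.10 (SE 0.26) and Etv4 at -0.09 (SE 0.22). The lists of BMP, Wnt, retinoic acid, apoptosis and ion transport genes, with 22, 27, 10, 21 and 10 genes tested, had 1 gene each at that p, lower in Tbx1+/-, where 1.02% of all genes tested were. Those of Hedgehog, Notch, junction, S phase, G2/M phase and 22q11.2 genes had 0, and medians between -0.14 and 0.07. With 2 libraries per genotype, a count of 0 calls does not show that the levels were alike.

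The change in CP5 was also set against that in the other progenitors, CP1 to CP4 and CP6 summed, in 1 model with the library as a block. Of 17039 genes 0 were called, which is 0%, with 732 at an unadjusted p under 0.05 and a smallest adjusted p of 0.257 by edgeR. With the batch as a further replicate block, so that CP5 and the other progenitors could each differ between batches, 6 were called, 0.0352% of those tested. They were Itih5, Slc7a11, Opcml and Lipf, with a higher change in CP5, and Nkain3 and Grin2a, with a lower one. Each had an adjusted p of 0.0492 by edgeR. This model has almost as many terms as sums, so its p-values and SEs rest largely on spread pooled over genes. The fits below that leave out 1 library share this limit. The difference with the block was 1.14 (SE 0.23) for Slc7a11 and 2.44 (SE 0.53) for Lipf. Leaving out 1 library gave 18 calls without WT batch 1, 16 without Tbx1+/- batch 2, 13 without WT batch 2 and 12 without Tbx1+/- batch 1. Runx2, named here after its values were seen, was among them without WT batch 2 (difference -0.78, SE 0.12) and without Tbx1+/- batch 2 (-0.76, SE 0.13). It was not called without WT batch 1 or without Tbx1+/- batch 1, so its calls needed both batch 1 libraries. Cytl1, at -1.37, and the otic fibrocyte gene Otos, at -1.11, were also called without Tbx1+/- batch 2. With all 4 libraries Runx2 stood at 932 CPM in CP5 in WT batch 1, 523 in Tbx1+/- batch 1, 697 in WT batch 2 and 713 in Tbx1+/- batch 2. The genotypes overlapped, and its difference from the other progenitors was -0.51 (SE 0.14, adjusted p = 0.638 by edgeR).

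The gene of smallest p was Opcml, a neural cell adhesion protein. In CP5 it stood at 17.1 CPM in WT batch 1, 34.9 in Tbx1+/- batch 1, 26.1 in WT batch 2 and 46.6 in Tbx1+/- batch 2. In the other progenitors it stood at 145, 128.5, 155 and 148 CPM. CP5 was higher in Tbx1+/- in both batches, while the sum of the other progenitors was lower. The difference was 1.09 on the log2 scale (SE 0.22, unadjusted p = 2.13e-05 by edgeR). Nkain3, a partner of the sodium pump, had 15.0, 8.57, 29.2 and 9.57 CPM in CP5 and 51.4, 64.3, 78.1 and 82.8 in the others, a difference of -1.41 (SE 0.30). Itih5, of the family of hyaluronan-binding inhibitors, had 62.4, 87.4, 45.4 and 74.0 CPM in CP5 and 216.4 to 255.8 in the others, a difference of 0.69 (SE 0.17). Grin2a, a glutamate receptor subunit, had a difference of -0.66 (SE 0.17), Kcnd3 one of 0.97 (SE 0.22) and Ccng1 one of 1.30 (SE 0.31). For Tbx1 the difference was -0.01 (SE 0.17).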

How the data were processed

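Single-nucleus 3′ RNA libraries of the PTB were mapped by the authors to mm10 with Cell Ranger 7.0.0 in intron mode, and the deposited matrices hold raw UMI counts per barcode. The authors left out nuclei with few detected genes and outliers, corrected for free RNA and clustered the nuclei. The deposited counts are not corrected for free RNA, and doublet removal is not described in the sources used here. The deposited annotation also holds UMAP coordinates, a score per nucleus from the authors' embedding, which were not used. Nuclei annotated as CP5 were summed per library. Python 3.11.15, scanpy 1.11.5 and R 4.3.3 were used. Genotypes were compared with edgeR 4.0.16 (filterByExpr, TMM, quasi-likelihood test, Benjamini-Hochberg over all genes tested, called at an adjusted p under 0.05 and over 1.5-fold). The design follows the authors' comparison of genotypes without a batch term, but over libraries, since nuclei are not replicates. SE is the log2 difference divided by the square root of F. Shares of nuclei were compared with the same test and a false discovery rate of 0.1, since DCATS, the tool of the study, was not run. The tests were tried on simulated data with 200 genes given a log2 change of 1. In the CP5 genotype test edgeR recovered 36% of them with 3 false calls and DESeq2 21.5% with 1. The test of the difference from other progenitors recovered 41.5%, with 1 false call. Unlike the real data, the simulated data had 1 spread for all genes. Apart from depth, they also had no effect of batch, library or cell type. Recovery in the real data was therefore not measured. Alternatives were DESeq2 1.42.0, RLE factors, no filter on low counts, a replicate block, filters on nuclei, other denominators and comparators, and leaving out each library. Sub-clusters came from Leiden clustering (leidenalg 0.10.2, resolution 0.25, 10 principal components), and leaving out sub-clusters 5 and 6 was chosen after seeing the data. Replicate numbers were taken to mark the 2 batches of the study, a link that the sample titles do not state. Same-numbered libraries deviated from their genotype means together (r = 0.258 across 12385 genes).

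Gene positions are those of GENCODE vM21 (GRCm38), which held 32158 of 32285 features. Upstream sequences come from RefSeq on GRCm38.p6. Named genes were Tbx1 and Sox9, the 25 leading genes, members of each list that were highest in CP5 or whose role bears on the list, the 6 genes of smallest p of each genotype test whose 2 batches shared a direction, and the leading genes of the sub-clusters. Bpifa1, Otor's upstream window and members near osteoclast levels were chosen after their values were seen. The members and lists were chosen with earlier results of these data known. An item is not reported here.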

Additional observations from a re-analysis of the deposited data

How the results depend on the processing

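The CP5 share kept its direction and did not pass under DESeq2, TMM factors, both filters on nuclei, without sub-clusters 5 and 6 and with the replicate block (-0.12). It reversed to 0.029 with CP1 to CP6 nuclei as the denominator, and ranged from -0.34 to 0.10 when 1 library was left out. The cause was not tested. The difference of Tbx1 stayed below 0 and was not called under any alternative run, from -0.81 to -0.01 when 1 library was left out, and was -0.41 with the replicate block. The count of genes changed by genotype was 2 without the filter on low counts (Bpifa1 and Ttr), 1 with the replicate block, and 3 to 78 when 1 library was left out. Ttr had 2.14, 97.7, 15.4 and 17.9 CPM in CP5 in WT batch 1, Tbx1+/- batch 1, WT batch 2 and Tbx1+/- batch 2. In batch 1 it was higher in Tbx1+/- in all 15 types, and in batch 2 in 5 of 15. The part of free RNA was not tested. The count of genes whose change differed from other progenitors was 4 without the filter, 6 with the replicate block, 1 without the 8% of nuclei of highest UMI count (8030451A03Rik), 2 without sub-clusters 5 and 6 (8030451A03Rik and Slc7a11), and 12 to 18 when 1 library was left out. The block changed no other call. With 2 libraries per genotype, each a pool, true changes can be missed, and genes with few UMIs in CP5 are imprecise.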
